A study of Homo sapiens with 3 samples.

Results

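The genes described here carry iron into, within and out of the cell: TF, TFRC, STEAP3, SLC11A2, FTH1, FTL, NCOA4, HMOX1, SLC40A1 and IREB2. They were taken by gene name from the expression tables of Hep3B cells, an established human hepatoma line, and all 10 were found among the 61533 genes listed. Polyadenylated RNA was sequenced from 3 wild-type cultures, each grown in serum-containing medium: 20% O2 (normoxia), 1% O2 in a flushed chamber (hypoxia), and 1% O2 with oxamate sodium, an inhibitor of lactate dehydrogenase (oxamate). The design text gives 48 hours with the oxamate culture and names no separate time for the other cultures, and the oxamate dose is not given in the sources used here. Each condition was sequenced as 1 library, which leaves every difference without a replicate check and without a p-value.

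Fragments assigned to genes numbered 27412147 for normoxia, 26309340 for hypoxia and 24826365 for oxamate. Levels are in normalised CPM, a fragment count relative to the scaled library total, or in FPKM, which also divides by gene length and was used to compare different genes. Intervals are 95% and cover counting error only, since no molecular identifiers are recorded and PCR copies may be counted more than once. A gene is said to have risen or fallen when the levels differed by 2-fold or more and the library with more had 50 fragments or more. Of 8 hypoxia marker genes, 8 rose in hypoxia and 0 fell, among them CA9 at 27.6-fold (23.7 to 32.3). Of 8 hepatocyte markers, 0 were at 0 in any library, and the albumin gene ALB had 5362 FPKM in normoxia. All 3 libraries come from this single tumour line.

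Cells take up iron as ferric iron bound to transferrin, which the transferrin receptor carries into endosomes, where STEAP3 reduces the iron and SLC11A2 moves it to the cytosol. Iron that is not used is stored inside ferritin, a shell of heavy (FTH1) and light (FTL) chains that NCOA4 delivers to the lysosome for breakdown, and ferroportin (SLC40A1) exports it. When iron is low, iron regulatory proteins, among them the product of IREB2, bind hairpins called iron-responsive elements: binding in the 5′ untranslated region blocks translation, and binding in the 3′ untranslated region of TFRC protects the messenger. In the liver, hepatocytes secrete transferrin into plasma and hold much of the body's stored iron.

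The hairpins are shown because they divide the genes into those whose messengers have the element before and those that have it after the coding sequence. The search was for an unpaired C, 5 paired bases, the loop CAGTGN and 5 bases pairing back, G-T pairs allowed, in GENCODE 29 transcripts (GRCh38) on the transcript strand. Each sequence reads 5′ to 3′ as DNA, with the loop in capitals. The coordinates are chr11:61967575-61967602 (minus strand) for FTH1, chr19:48965335-48965362 (plus) for FTL and chr2:189580662-189580689 (minus) for SLC40A1.
FTH1 5′ untranslated region: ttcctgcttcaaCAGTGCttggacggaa
FTL 5′ untranslated region: ctcttgcttcaaCAGTGTttggacggaa
SLC40A1 5′ untranslated region: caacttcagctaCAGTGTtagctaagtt
TFRC 3′ untranslated region, element 1: aattatcggaagCAGTGCcttccataat
TFRC 3′ untranslated region, element 2: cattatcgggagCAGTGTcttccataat
TFRC 3′ untranslated region, element 3: ctgtatcggagaCAGTGAtctccatatg
TFRC 3′ untranslated region, element 4: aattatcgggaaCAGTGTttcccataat

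The TFRC elements lie on the minus strand at chr3:196050980-196051007, chr3:196050576-196050603, chr3:196050511-196050538 and chr3:196050464-196050491. Between the last base of the loop of the 5′ element and the start codon lie 159 bases in FTH1, 155 in FTL and 211 in SLC40A1. By this pattern, 36 of 19659 protein-coding genes (0.183%) had a match in the 5′ and 132 (0.671%) in the 3′ untranslated region. TF had 1 match in its long 3′ end, and STEAP3, SLC11A2, NCOA4, HMOX1 and IREB2 had 0 in their protein-coding transcripts. SLC11A2 is nonetheless listed below among the messengers with a known iron-responsive element. A count of 0 for this pattern therefore does not show that an element is absent. A match is a description of letters, and binding was not measured.

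The 250 bases before the start site are shown for TFRC and FTL, the iron receptor and the storage chain whose levels went in opposite directions, from RefSeq (GRCh38.p14). Promoters were searched on both strands for ACGTG and GCGTG, the cores to which hypoxia-inducible factors bind, and for TGACNNNGC, the core of the antioxidant response element to which NRF2 binds. Capitals mark the matches to these cores. The coordinates are chr3:196082091-196082340 (minus strand) for TFRC and chr19:48965059-48965308 (plus) for FTL.
TFRC: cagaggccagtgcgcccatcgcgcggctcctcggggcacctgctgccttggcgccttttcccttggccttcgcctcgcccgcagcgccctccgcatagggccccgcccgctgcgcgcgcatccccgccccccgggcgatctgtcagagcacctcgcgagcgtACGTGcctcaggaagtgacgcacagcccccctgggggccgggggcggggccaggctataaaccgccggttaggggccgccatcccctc
FTL: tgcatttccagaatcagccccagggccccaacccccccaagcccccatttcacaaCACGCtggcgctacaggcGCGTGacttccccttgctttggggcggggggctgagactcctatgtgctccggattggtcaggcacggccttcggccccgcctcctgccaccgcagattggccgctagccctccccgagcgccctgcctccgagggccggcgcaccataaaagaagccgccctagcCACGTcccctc

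TFRC held 1 ACGTG, on the gene's strand, at position -88 counted from the start site. FTL held 1 ACGTG on the opposite strand, printed as CACGT, and 2 GCGTG, 1 on each strand, the opposite-strand one printed as CACGC. Over 35116 promoters of the same length, with 50 bases after the start, 21.4% held ACGTG, 36.5% GCGTG and 13.3% TGACNNNGC. The table had promoters for 8 of the 10 genes, some with more than 1 start. STEAP3 and SLC40A1 held 0 of these cores. TF held 0 at the start in chr3:133746143-133746442. Another start listed for TF, in chr3:133661748-133662047, lies before the gene coordinates given below. It held 1 ACGTG, at position 29, after the start. SLC11A2 held 4 GCGTG at 1 start and fewer at its others. NCOA4 held 1 TGACNNNGC and IREB2 held 1 GCGTG, each at 1 start. Binding at these letters was not measured.

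The first comparison asks how low oxygen changed the messengers of iron handling. In hypoxia the transferrin gene TF rose, both ferritin chains FTH1 and FTL fell, and the endosomal reductase gene STEAP3 and the exporter gene SLC40A1 fell with them. The receptor gene TFRC, the ferritin receptor gene NCOA4 and the haem oxygenase gene HMOX1 stood higher by less than 2-fold. Of the 10 genes, 1 rose, 4 fell and 5 did neither. Among all 13554 genes with enough fragments, 10.8% rose and 8.06% fell. The median log2 ratio of the 10 genes was 0.16, beside -0.11 over all these genes.

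**Figure D1:**
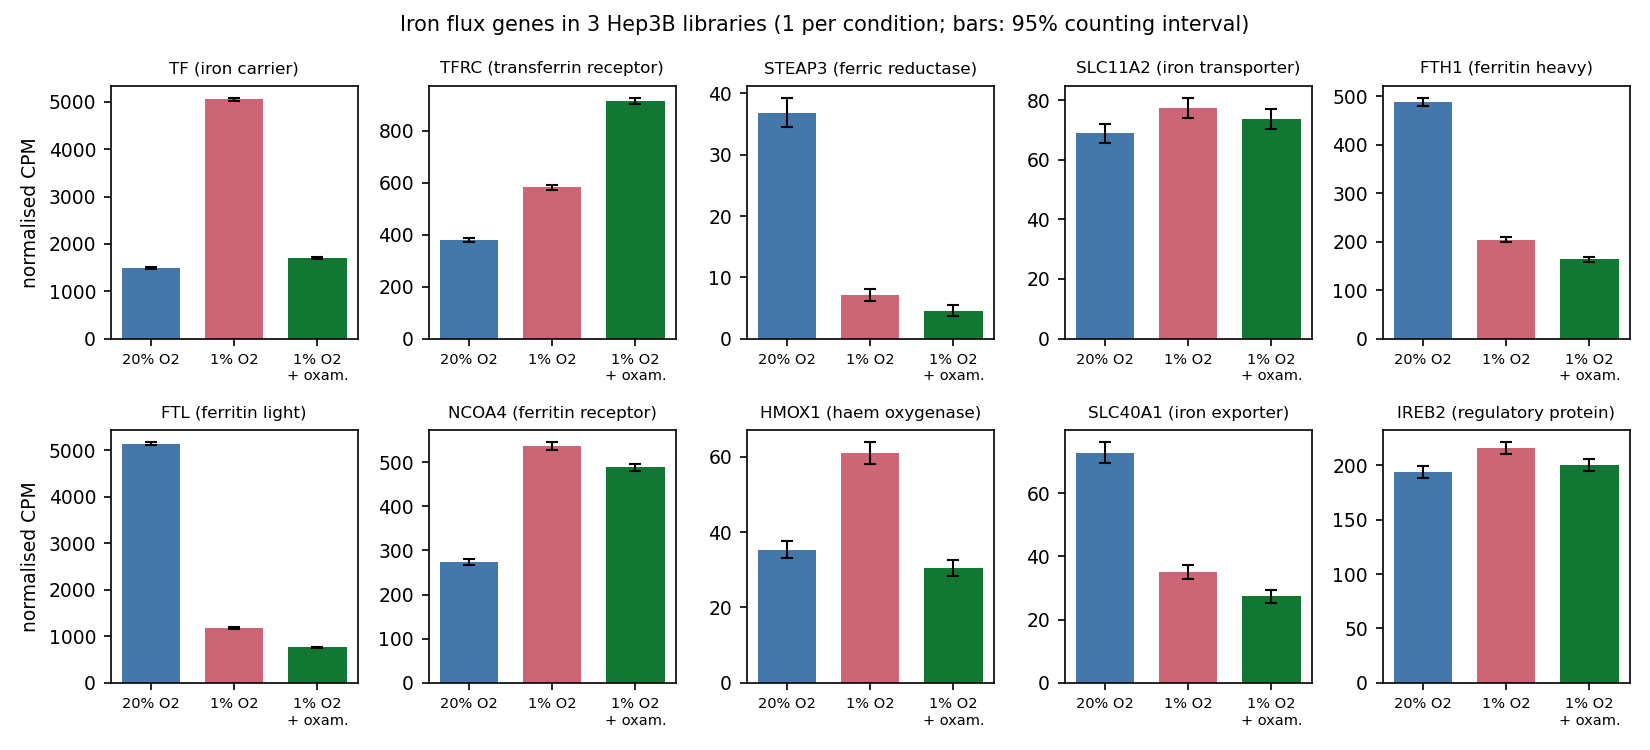
Normalised CPM (vertical axis, linear from 0, a separate scale for each gene) of the 10 iron genes in the 3 libraries, with 95% counting intervals as error bars. TF is highest at 1% O2 alone, TFRC is highest with oxamate, and FTL, FTH1, STEAP3 and SLC40A1 are highest at 20% O2.

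TF encodes transferrin, the plasma iron carrier secreted by hepatocytes (hg38 chr3:133746040-133796641, plus strand, ENSG00000091513_16). Its fragments numbered 38641 (normoxia), 139877 (hypoxia) and 42672 (oxamate), or 1494, 5055 and 1706 CPM. Its share of all fragments was 0.141% in normoxia, 0.532% in hypoxia and 0.172% with oxamate. The hypoxia library thus stood well above both others, which lay near each other. TF rose 3.38-fold in hypoxia (3.35 to 3.42). The 8 hepatocyte markers together went the other way, from 29962 CPM in normoxia to 15160.4 in hypoxia, with 5 of the 8 fallen and 0 risen, ALB among the fallen at 2.06-fold lower (2.05 to 2.07). In such bulk samples of a single line, fewer cells expressing a gene and less of its RNA in every cell cannot be told apart. The length used for TF is 26038 bases, of which 8.04% are coding in its principal transcript, so its FPKM (57.7, 193 and 64.8) is low beside that of shorter genes.

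TFRC encodes the transferrin receptor (chr3:196027183-196082096, minus strand, ENSG00000072274_13). It had 9828, 16091 and 22843 fragments, or 379.9 CPM in normoxia, 581.5 in hypoxia and 913 with oxamate. The values step upward from library to library in that order, and their intervals do not overlap. TFRC was 1.53-fold higher in hypoxia (1.49 to 1.57), below the size required.

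STEAP3 encodes the ferric reductase of the transferrin endosome (chr2:119223831-119265652, plus strand, ENSG00000115107_20). It had 953, 196 and 113 fragments, or 36.8, 7.08 and 4.52 CPM. Both libraries at 1% O2 lay far below normoxia. STEAP3 fell 5.20-fold in hypoxia (4.46 to 6.10), the largest ratio among the 10 genes. An antisense gene, STEAP3-AS1, shares 10.96% of its exon bases and had 5, 4 and 4 fragments. Whether the library kit kept strand is not stated, and without strand, reads of a gene and its antisense partner cannot be told apart.

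SLC11A2 encodes the divalent metal transporter that moves ferrous iron across the endosomal membrane (chr12:50979401-51028566, minus strand, ENSG00000110911_17). Its 1781, 2140 and 1839 fragments gave 68.85, 77.3 and 73.5 CPM. It was 1.12-fold higher in hypoxia (1.05 to 1.20). The uptake route thus held its least changed gene beside its most changed, STEAP3.

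FTL encodes the ferritin light chain (chr19:48965309-48966879, plus strand, ENSG00000087086_15). Its fragments numbered 132969 (normoxia), 32511 (hypoxia) and 19094 (oxamate), or 5140.4, 1175 and 763 CPM. Per length, FTL was one of the most abundant messengers of these cells: by FPKM it ranked 6 among 19854 protein-coding genes in normoxia (5935 FPKM), 16 in hypoxia (1342) and 20 with oxamate (867). FTL fell 4.38-fold in hypoxia (4.32 to 4.43). Its share of all fragments went from 0.485% to 0.124%. Of the 100-base windows of its transcript, 3.34% also occur in the pseudogene FTLP3. All 16 FTL pseudogene rows together had 136, 78 and 32 fragments, at most 0.24% of the parent.

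FTH1 encodes the ferritin heavy chain, which oxidises iron for storage (chr11:61959718-61967634, minus strand, ENSG00000167996_16). Its fragments were 12624, 5634 and 4101, or 488, 204 and 164 CPM, so both libraries at 1% O2 lay below normoxia. FTH1 fell 2.40-fold in hypoxia (2.32 to 2.47). With the trend of ratios with gene length removed it was at -0.98 on the log2 scale, just short of the size required. The level of FTH1 is uncertain: 62.4% of its exon bases lie under BEST1 on the opposite strand, which had 19, 7 and 18 fragments, and 20.2% of its 100-base windows occur in 8 other genes, the pseudogenes FTH1P7, FTH1P10 and FTH1P2 among them. The 25 FTH1 pseudogene rows together had 112, 141 and 150 fragments, or 0.887%, 2.5% and 3.66% of the parent. How reads in shared or repeated sequence were counted is not given in the sources used here, and the part of this in the FTH1 values was not tested.

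NCOA4 encodes the receptor that brings ferritin to the lysosome, where its iron is released (chr10:46005088-46030623, minus strand, ENSG00000266412_6). It had 7103, 14853 and 12212 fragments, or 275, 537 and 488 CPM. Both libraries at 1% O2 lay above normoxia, the reverse of the ferritin chains. NCOA4 was 1.96-fold higher in hypoxia (1.90 to 2.01), at the edge of the size required. Scaling by total fragments put it past that edge (log2 1.12), as did leaving out the mitochondrial chromosome (1.08) or the length trend (1.08).

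HMOX1 encodes haem oxygenase 1, which frees iron from haem (chr22:35380361-35394214, plus strand, ENSG00000100292_18). It had 912, 1685 and 760 fragments, or 35.3 CPM in normoxia, 60.9 in hypoxia and 30.4 with oxamate. As with TF, the hypoxia library was the highest. HMOX1 was 1.73-fold higher in hypoxia (1.59 to 1.87), and it passed the size required with the length trend removed (log2 1.06).

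SLC40A1 encodes ferroportin, the exporter of iron from cells (chr2:189560590-189583758, minus strand, ENSG00000138449_11). Its 1883, 972 and 685 fragments gave 72.8, 35.1 and 27.4 CPM, so normoxia was the highest. SLC40A1 fell 2.07-fold in hypoxia (1.92 to 2.24). This call is close to the limit: under scaling by total fragments, without the mitochondrial chromosome and with the length trend removed, the log2 ratio was as small as -0.90, and its interval reaches below 2-fold.

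IREB2 encodes iron regulatory protein 2, whose amount is set mainly by protein breakdown (chr15:78437431-78501453, plus strand, ENSG00000136381_13). It had 5007, 5969 and 5009 fragments, or 194, 216 and 200.3 CPM. IREB2 was 1.11-fold higher in hypoxia (1.07 to 1.16). With the length trend removed, the log2 ratios of IREB2 and SLC11A2 changed sign, to -0.08 and -0.04, so neither has a stable direction. Scaling by total fragments shifted the median of all genes by 0.16 on the log2 scale and gave 1775 risen and 751 fallen genes in place of 1468 and 1093.

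**Figure D2:**
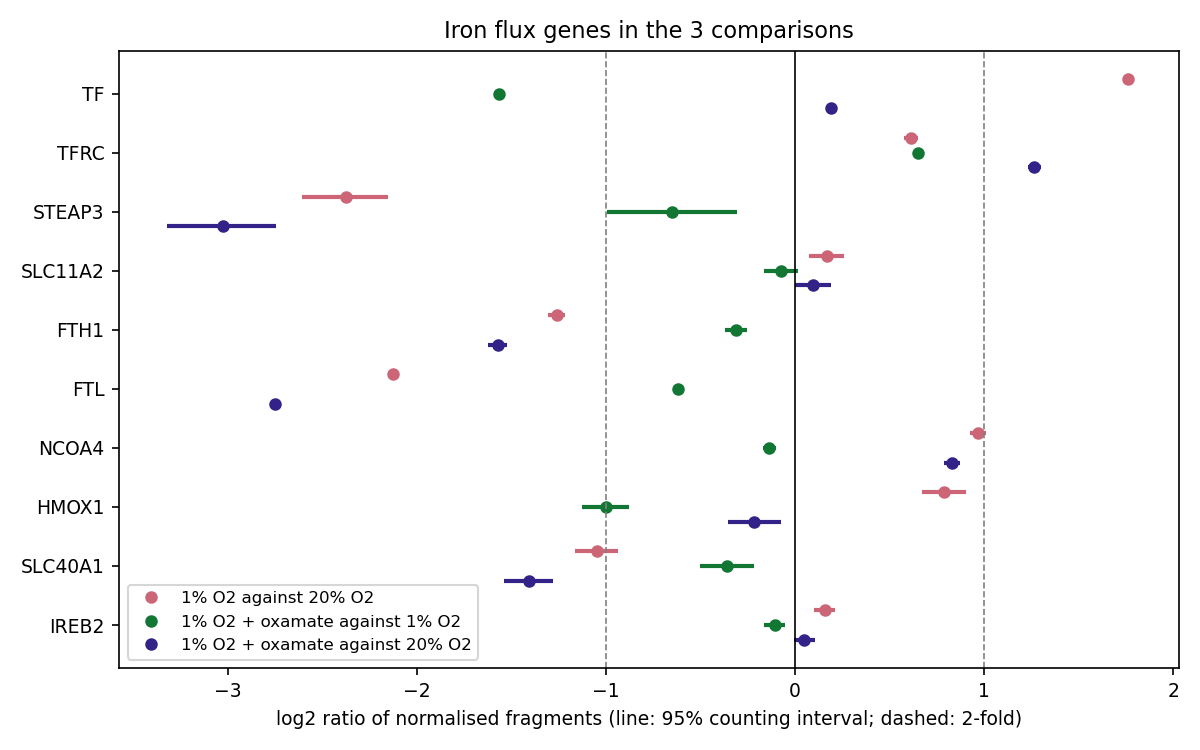
Log2 ratio of normalised fragments (horizontal axis) for each of the 10 genes in the 3 comparisons, with 95% counting intervals as lines and the 2-fold limits dashed. FTL, FTH1, STEAP3 and SLC40A1 lie to the left of 0 in every comparison, TFRC lies to the right in every comparison, and TF changes side between hypoxia and oxamate.

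The second comparison asks how these messengers differed when oxamate was present at 1% O2. It shares the hypoxia library with the first, so a high or low value there moves both. TF and HMOX1 fell, and no gene of the 10 rose. TFRC stood higher again and the ferritin chains lower again, each by less than 2-fold. Of the 10 genes, 0 rose, 2 fell and 8 did neither, beside 5.92% risen and 5.07% fallen among 13739 genes. The median log2 ratio of the 10 was -0.34, beside -0.01 over all genes.

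TF fell 2.96-fold with oxamate (2.93 to 3.00), and this held under every scaling tried. It then stood at 1.14-fold its normoxic level (1.13 to 1.16). The hepatocyte markers summed to 9927 CPM with oxamate, with 4 of the 8 fallen and 0 risen. AFP, the fetal relative of albumin, was among them, at 2.36-fold lower than in hypoxia (2.31 to 2.41), while between normoxia and hypoxia it was 1.24-fold lower (1.22 to 1.26).

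HMOX1 fell 2.004-fold with oxamate (1.84 to 2.19), at the limit. The call ended with either the length or the GC trend removed, or when the whole interval had to pass. Against normoxia HMOX1 stood 1.16-fold lower (1.05 to 1.28).

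TFRC was 1.57-fold higher with oxamate than in hypoxia (1.54 to 1.60). FTL was 1.54-fold lower (1.51 to 1.57), FTH1 1.24-fold lower (1.19 to 1.29) and SLC40A1 1.28-fold lower (1.16 to 1.42). STEAP3 was 1.57-fold lower (1.24 to 1.99) on 113 against 196 fragments. All of these lie below the size required. NCOA4 was 1.10-fold lower (1.07 to 1.13) and IREB2 1.08-fold lower (1.04 to 1.12). SLC11A2, at 1.05-fold lower (0.988 to 1.12), did not differ beyond counting error.

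**Figure D3:**
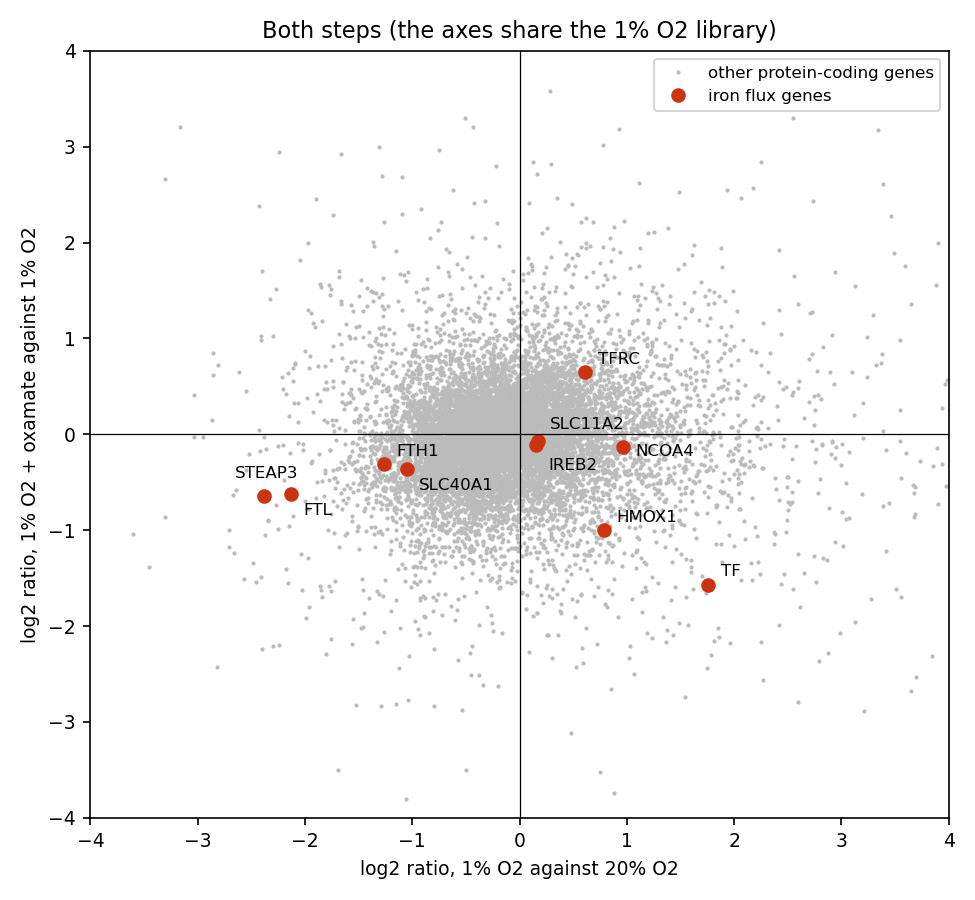
Log2 ratio of hypoxia against normoxia (horizontal axis) and of oxamate against hypoxia (vertical axis) for the 10 iron genes (red) and other protein-coding genes (grey); 59 of 11672 genes lie outside the axes. TF and HMOX1 are at lower right, TFRC at upper right and the ferritin chains, STEAP3 and SLC40A1 at lower left, and the axes share the hypoxia library.

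The third comparison sets oxamate at 1% O2 against normoxia, and its values follow from the other two. TFRC rose and both ferritin chains, STEAP3 and SLC40A1 fell. Of the 10 genes, 1 rose, 4 fell and 5 did neither, beside 15.4% risen and 15.3% fallen among 13597 genes. These 5 calls held under all 11 alternative settings. TFRC rose 2.40-fold (2.35 to 2.46), FTL fell 6.73-fold (6.63 to 6.84), FTH1 fell 2.98-fold (2.87 to 3.08), STEAP3 fell 8.16-fold (6.70 to 10.0) and SLC40A1 fell 2.66-fold (2.43 to 2.91). NCOA4 was 1.78-fold higher (1.73 to 1.83). SLC11A2, at 1.07-fold (1.00 to 1.14), and IREB2, at 1.03-fold (0.995 to 1.08), did not differ beyond counting error.

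Ratios of FPKM within a library compare the genes with each other and do not depend on the scaling between libraries. The light chain outnumbered the heavy chain throughout, and less so at 1% O2: FTL to FTH1 was 24.2 in normoxia (23.8 to 24.7), 13.3 in hypoxia (12.9 to 13.7) and 10.7 with oxamate (10.4 to 11.1). On the length of the principal transcript alone it was 14.7, 8.08 and 6.52, so its size rests on the length used, while its order does not. The level of FTH1 is uncertain as given above.

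The balance of the receptor against the exporter, TFRC to SLC40A1, was 2.83 in normoxia (2.69 to 2.97), 8.96 in hypoxia (8.40 to 9.57) and 18.1 with oxamate (16.7 to 19.5). TFRC to FTH1 was 0.200 in normoxia (0.195 to 0.206), 0.734 in hypoxia (0.712 to 0.757) and 1.43 with oxamate (1.39 to 1.48). As counted here, the receptor messenger went from below the heavy chain messenger to above it per length. The uncertain level of FTH1 given above bears on this crossing and on every ratio to FTH1, and its part was not tested. Against the light chain, TFRC stood at 0.00826 in normoxia, 0.0553 in hypoxia and 0.134 with oxamate. NCOA4 to FTH1 was 0.283 in normoxia (0.275 to 0.291), 1.33 in hypoxia (1.29 to 1.37) and 1.496 with oxamate (1.44 to 1.55). On principal transcript lengths NCOA4 to FTH1 was 0.195, 0.913 and 1.03, so which of the pair stood higher in hypoxia rests on the length used. On those lengths TFRC to FTL was 0.0135, 0.0903 and 0.218, and TFRC to FTH1 was 0.199, 0.729 and 1.42. These length alternatives were chosen after seeing the data.

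By rank of FPKM among protein-coding genes, FTL stood first of the 10 in each library. FTH1 followed at rank 80 in normoxia and stood at 211 in hypoxia, behind TF (89) and NCOA4 (147). On principal transcript lengths FTH1 stayed above NCOA4 in hypoxia, at 165 against 150.5 FPKM. With oxamate, NCOA4 (173) and TFRC (184) stood above FTH1 (298). The ranks of FTH1 carry the uncertainty in its level given above. STEAP3 moved from rank 5112 in normoxia to 9682 in hypoxia and 10407 with oxamate.

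Genes with the pattern nearest to TF, FTL, TFRC and FTH1 were found by Euclidean distance over the log2 ratios of the first and second comparisons, among 10104 protein-coding genes with at least 500 fragments summed over the 3 libraries. TF had few close neighbours: 2 genes lay within a distance of 0.25, the transcription factor gene CUX2 at 0.09 and the Notch glycosyltransferase gene LFNG at 0.15, and the sodium channel subunit gene SCNN1A came next at 0.38. FTL had 6 within that distance, led by PNMA3 (0.15), the ribosome assembly gene RRS1 (0.16) and the fatty acid transporter gene SLC27A2 (0.19). TFRC and FTH1 lay in denser regions, with 174 and 170 genes within that distance. Their nearest were FAM241A, IPMK and AREG for TFRC, and NDUFAF8, SHANK3 and MOCS1 for FTH1. The distance covers 3 libraries only.

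The other genes of iron and haem handling were taken as lists, and are given where they had at least 50 fragments in a library compared. Their counts stand beside the shares of all genes that rose or fell, given above for each comparison. The 1 gene of export and oxidation that rose, of 3 measured, was CP, which encodes ceruloplasmin, the plasma ferroxidase that loads iron onto transferrin. CP had 1352, 27790 and 26741 fragments, or 52.3, 1004 and 1069 CPM, and both libraries at 1% O2 stood far above normoxia. CP rose 19.2-fold in hypoxia (18.2 to 20.3) and stood 1.07-fold higher with oxamate than in hypoxia (1.05 to 1.08), so TF and CP rose together in hypoxia but only TF fell with oxamate. The intervals of the TF and CP ratios in the oxamate step do not overlap.

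Of 5 measured genes of uptake and reduction outside the 10, 0 rose and 2 fell in hypoxia, and 2 rose and 1 fell with oxamate against hypoxia. The metal transporter gene SLC39A8 fell 2.52-fold in hypoxia (2.16 to 2.95) and rose 2.78-fold with oxamate (2.38 to 3.24). STEAP1, a relative of STEAP3, fell 3.92-fold (2.19 to 7.48) and rose 3.98-fold (2.22 to 7.60) on 55, 15 and 54 fragments. TFR2, the second transferrin receptor and an iron sensor of hepatocytes, had 93, 116 and 31 fragments and fell 3.38-fold with oxamate (2.26 to 5.20), while TFRC did not fall.

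Among 7 genes that control the iron regulatory proteins, 0 rose and 0 fell in hypoxia or with oxamate against hypoxia. ACO1, which encodes iron regulatory protein 1, had 2473, 1366 and 948 fragments, was 1.94-fold lower in hypoxia (1.81 to 2.07) and fell 2.52-fold with oxamate against normoxia (2.34 to 2.72). Of 8 measured messengers with a known iron-responsive element, 0 rose and 3 fell in hypoxia. The list holds SLC11A2 and EPAS1, although they had 0 matches to the pattern searched above. The 3 that fell, FTH1, FTL and SLC40A1, are members described above and have the element in the 5′ untranslated region. EPAS1, for a hypoxia-inducible factor subunit, was 1.41-fold higher (1.36 to 1.46). Protein levels and binding were not measured.

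Of 9 measured genes of haem handling, 0 rose and 2 fell in hypoxia. HPX, for the plasma haem carrier hemopexin, fell 2.83-fold (2.43 to 3.30) and again 2.29-fold with oxamate against hypoxia (1.80 to 2.94). HMOX2, the constitutive haem oxygenase gene, fell 2.02-fold in hypoxia (1.77 to 2.30), opposite in direction to HMOX1. That call sits at the limit. It ended under scaling by total fragments, with the mitochondrial chromosome left out, and with the length or GC trend removed. BACH1, for a repressor of HMOX1, rose 2.06-fold with oxamate against normoxia (1.95 to 2.18), a call that ended with the length or GC trend removed.

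Over all genes 15.3% fell with oxamate against normoxia. Of 8 measured genes of haem synthesis, 0 rose and 3 fell in that comparison. Among them, UROD, for an enzyme of the porphyrin steps, fell 2.68-fold (2.45 to 2.94) and FECH, for the enzyme that inserts iron, fell 2.40-fold (2.15 to 2.69).

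Of 12 measured genes of mitochondrial iron use and iron-sulfur assembly, 0 rose and 2 fell in hypoxia, and their log2 ratios centred on a median of -0.75. The larger fall was that of FDX1, a ferredoxin gene, at 3.00-fold (2.54 to 3.54). With oxamate against normoxia the median was -1.07 and 7 of 12 fell, among them the mitochondrial iron importer gene SLC25A37 by 2.55-fold (2.15 to 3.04). The medians over all genes in these comparisons were -0.11 and -0.11, and 8.06% and 15.3% of all genes fell.

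**Figure D4:**
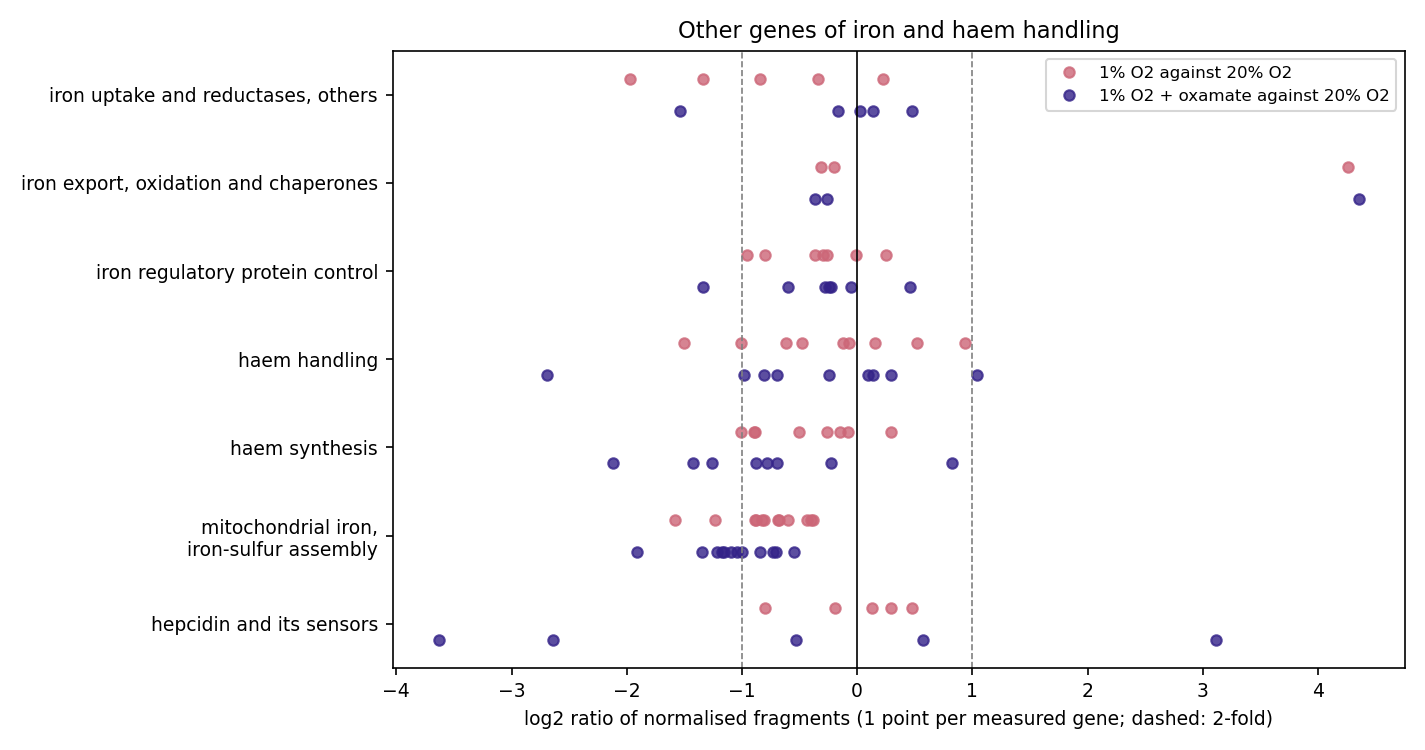
Log2 ratio of normalised fragments (horizontal axis, 2-fold limits dashed) for each measured gene of 7 lists of iron and haem handling, hypoxia against normoxia and oxamate against normoxia. Every measured gene of mitochondrial iron and iron-sulfur assembly lies left of 0 in both. CP lies farthest right in both, and BMP6 comes next with oxamate against normoxia (3.11).

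Hepcidin, the hormone that removes ferroportin from the cell surface, was barely present: HAMP had 4, 6 and 6 fragments, and no ratio is given. Of 5 measured genes of hepcidin and its sensors, 0 rose and 0 fell in hypoxia, while 1 rose and 2 fell with oxamate against hypoxia. BMP6, for a ligand that induces hepcidin, had 45, 59 and 376 fragments and rose 7.05-fold (5.35 to 9.44). TMPRSS6, for a protease that restrains hepcidin, had 786, 1172 and 122 fragments and fell 8.68-fold (7.20 to 10.6). HJV, for the coreceptor of BMP6, fell 7.13-fold (4.35 to 12.4) on 18 against 142 fragments.

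Of 7 NRF2 target genes outside iron, 0 rose and 3 fell in hypoxia, as FTL, FTH1 and SLC40A1 did, which are known NRF2 targets as well. Among them, NQO1 fell 3.53-fold (3.27 to 3.81) and GCLC 2.08-fold (1.91 to 2.26), and 2 of the 7 fell under scaling by total fragments. HMOX1, also a target of NRF2, stood higher in that comparison. With oxamate against hypoxia 1 of 6 measured rose, the cystine transporter gene SLC7A11 at 3.60-fold (3.32 to 3.91).

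Macrophages and red cell precursors also express many of these iron genes. In the 3 libraries the 5 erythroid markers summed to 0.0387, 0.145 and 0.52 CPM, with HBB, HBA1 and HBA2 at 0 in each. The 6 macrophage and blood markers summed to 42.8, 32.9 and 61.8 CPM, of which LYZ gave 37.3, 31.8 and 59.9, and CD163 and MARCO were at 0 in each. The 5 endothelial markers summed to 1.35, 8.38 and 20.1 CPM, nearly all of it PECAM1 (1.28, 8.31 and 19.9). The 5 stellate cell and fibroblast markers summed to 15.2, 20.8 and 7.12 CPM. The part of PECAM1 and LYZ expression in the iron gene values was not tested.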

How the data were processed

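The authors deposited 1 table per library with a gene identifier, coordinates, summed exon length and FPKM, per the file headers. In the submitters' processing notes stand edgeR 3.22.5, featureCounts 1.5.0-p3, StringTie 1.3.3b, HISAT2 2.0.5 and the build hg38, without a stated role. How strand and multi-mapping reads were handled is not given in the sources used here. Deposited FPKM times length gave whole multiples of a constant for 100% of values above 0 (within 0.01), and these were used as fragments. The design had set this as a condition. 0 value columns were left unused.

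The 21987 genes with 10 or more fragments summed over libraries gave scaling factors by the trimmed mean of M values (30% and 5% trims; 0.944, 1.05 and 1.01 for normoxia, hypoxia and oxamate) in Python 3.11.15 (statsmodels 0.14.6, pandas 2.3.3, scipy 1.17.1, numpy 2.4.6). Ratios have exact conditional binomial (Clopper-Pearson) intervals, and CPM exact Poisson intervals. The procedure was tested on simulated data. Gene types and transcripts came from GENCODE 29 (58312 identifiers matched).

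Named were the 10 genes, up to 2 highest and 2 lowest genes past the size rule per list, other list genes where a contrast needed them (EPAS1 was chosen after its value was seen), the ferritin pseudogenes, and the 3 nearest patterns of TF, TFRC, FTL and FTH1. The genes and lists were chosen with earlier results of these data known, so their counts support nothing independently. Results of some list genes are not reported here. The alternatives were other scalings, filters, limits and the removal of length and GC trends.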

Additional observations from a re-analysis of the deposited data

How the results depend on the processing

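Of the 10 genes, no log2 ratio that passed the size rule changed sign under an alternative. Apart from the calls of HMOX2 and BACH1 given above, single list genes were not followed across alternatives. For hypoxia against normoxia, the number of the 10 genes that rose went from 1 to 2 with scaling by total fragments or with the mitochondrial chromosome left out (NCOA4 added), to 3 with the length trend removed (NCOA4 and HMOX1 added) and to 4 at a 1.5-fold limit. The number that fell went from 4 to 3 (SLC40A1 lost) with scaling by total fragments, with the mitochondrial chromosome left out or with the whole interval past 2-fold, and to 2 with the length trend removed (FTH1 and SLC40A1 lost). For oxamate against hypoxia, a 1.5-fold limit gave 1 risen and 4 fallen, and 1 fell (TF, with HMOX1 lost) when the whole interval had to pass or the length or GC trend was removed. For oxamate against normoxia, the 1.5-fold limit gave 2 risen. The cause of these moves was not tested. Over all genes, risen and fallen numbered 2530 and 2964 (hypoxia against normoxia), 1880 and 1894 (oxamate against hypoxia) and 3307 and 3903 (oxamate against normoxia) at 1.5-fold. With the whole interval past 2-fold they were 944 and 665 in the first comparison and 491 and 307 in the second. With a minimum of 10 fragments they were 3618 and 1772, 2079 and 1866, and 4351 risen in the third. With a minimum of 200 they were 723 risen, 467 and 337, and 1225 risen. FTL to FTH1 was 14.7, 8.08 and 6.52 in normoxia, hypoxia and oxamate on the principal transcript's length, an alternative chosen after seeing the data, and 10.4 with oxamate when pseudogenes were summed with the parents.

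Uncalled values changed sign with the length trend removed for SLC11A2 and IREB2 in hypoxia, and under at least 1 setting for TF, SLC11A2, HMOX1 and IREB2 with oxamate against normoxia. No paired analysis was possible because each group has 1 library. Leaving out a library was not possible for the same reason. Among the 10 genes, depth limits STEAP3 most, with 113 fragments in its lowest library, and among the list genes given with a fold, STEAP1 (15), HJV (18) and TFR2 (31) had the fewest.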
